A study of Homo sapiens with 6 samples.

Results

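The RNA of 10 genes was followed in SKNMC cells: the FOS family members FOS, FOSB, FOSL1 and FOSL2, the JUN family members JUN, JUNB and JUND, the related factor ATF3, and the immediate early genes EGR1 and IER2. They were taken by gene name from the 22604 genes of the count table, and all 10 were in it. SKNMC is a Ewing sarcoma cell line, whose tumour type is driven by the EWS-FLI1 fusion protein. RNA-seq was done in 3 groups of 2 libraries each. NFIB-ΔIDR cells carried a V5-tagged form of the transcription factor NFIB that lacks its intrinsically disordered region (IDR), NFIB-WT cells carried V5-tagged full-length NFIB, and EV cells carried the empty expression vector. All cells were grown in serum, were labelled untreated and still had their own NFIB gene. The constructs were delivered by lentivirus with puromycin selection, and the methods describe no single-cell cloning. The question addressed was which RNA changes that follow added NFIB need its disordered region.

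FOS and JUN proteins are bZIP transcription factors that bind DNA as dimers, together called AP-1. FOS proteins pair with JUN proteins, while JUN proteins can also pair among themselves. FOS, EGR1 and IER2 are classic immediate early genes: serum or growth factors switch them on within minutes, through kinases that act on the serum response factor at their promoters, and the RNA is short-lived. FOSL1 and FOSL2 usually follow later and last longer. Levels of such RNAs are therefore sensitive to how cells are fed and handled before lysis.

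Windows before the table's transcription starts of FOS, FOSL2 and EGR1 are shown because FOS and FOSL2 moved in opposite directions between the NFIB forms, and because EGR1 holds the same serum response element as FOS. In hg19, FOS is annotated on the plus strand of chromosome 14 from 75745529 to 75748933, FOSL2 on the plus strand of chromosome 2 from 28615315 to 28640184, and EGR1 on the plus strand of chromosome 5 from 137801168 to 137804992. The windows hold the 300 bases from 330 to 31 bases before the transcription start of the count table, read 5′ to 3′ on the plus strand at chr14:75745151-75745450, chr2:28615449-28615748 and chr5:137800851-137801150. For FOSL2 the table's start lies 464 bases inside the annotated gene, so that its whole window, 134 to 433 bases after the annotated start, is within the gene. The FOS and EGR1 windows lie before the annotated starts. Relative to these starts, the FOS window runs from -378 to -79 bases and the EGR1 window from -317 to -18 bases. Motifs nearer to those starts are not covered. Capitals mark matches on either strand to the CArG box (the binding motif of serum response factor), to the cyclic AMP response element core TGACGT, to the AP-1 motif TGANTCA, and to the short NFI motif TGGCA. The full NFI site, TTGGC and GCCAA with 5 bases between them, was also searched.
FOS: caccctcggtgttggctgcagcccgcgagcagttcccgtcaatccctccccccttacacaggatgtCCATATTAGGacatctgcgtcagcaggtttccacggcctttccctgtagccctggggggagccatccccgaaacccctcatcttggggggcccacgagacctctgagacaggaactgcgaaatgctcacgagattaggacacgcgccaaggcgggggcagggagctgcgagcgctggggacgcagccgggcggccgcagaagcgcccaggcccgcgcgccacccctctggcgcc
FOSL2: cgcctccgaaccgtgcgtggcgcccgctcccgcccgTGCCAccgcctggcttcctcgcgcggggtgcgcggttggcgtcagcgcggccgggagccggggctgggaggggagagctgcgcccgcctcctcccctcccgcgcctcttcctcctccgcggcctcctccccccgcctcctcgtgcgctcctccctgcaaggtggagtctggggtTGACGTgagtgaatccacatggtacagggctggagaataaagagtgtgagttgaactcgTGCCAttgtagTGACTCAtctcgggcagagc
EGR1: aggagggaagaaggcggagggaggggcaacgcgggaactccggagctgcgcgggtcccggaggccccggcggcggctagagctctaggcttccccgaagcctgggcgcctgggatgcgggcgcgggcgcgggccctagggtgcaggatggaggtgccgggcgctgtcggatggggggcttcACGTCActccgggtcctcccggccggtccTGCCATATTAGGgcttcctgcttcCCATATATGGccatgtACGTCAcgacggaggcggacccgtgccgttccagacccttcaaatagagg
The FOS window held 1 CArG box, 264 to 255 bases before the table's start, and none of the other motifs. The FOSL2 window held no CArG box, 1 TGACGT, 1 AP-1 motif (50 to 44 bases before the table's start) and 2 short NFI motifs. The EGR1 window held 2 CArG boxes, 2 TGACGT matches and 1 short NFI motif, which overlaps the first CArG box. Among the windows of 19469 genes, 1.34% held a CArG box, 6.55% TGACGT, 6.19% the AP-1 motif, 44.9% a short NFI motif and 0.0411% a full NFI site. Of the other members, FOSB held 1 CArG box and 3 TGACGT matches, JUND 3 and JUN 1 TGACGT matches, FOSL1 1 TGACGT and 1 short NFI motif, and JUNB, ATF3 and IER2 none of these letters. The ATF3 window lies before the annotated start at 212738676, the outer end of a gene that runs to 212794119. Any start further inside that gene was not covered. A match is a description of the window only, and factor binding was not analysed here.

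Library totals lay between 6664231 and 8465572 counts. Levels are given as TMM-scaled CPM (counts scaled to a common library total over the genes tested), where 1 CPM stood for 6.667 to 8.368 counts of a library. NFIB RNA averaged 2280 ± 74.2 CPM in NFIB-ΔIDR cells, 1010 ± 58.1 CPM in NFIB-WT cells and 160.1 ± 21.97 CPM in EV cells (SD, n = 2 each), so the 2 NFIB forms were not at the same RNA level. The difference between the forms was itself called (log2 fold change 1.17, edgeR adjusted p = 0.000191), and whether it has a part in the results below was not tested. The NFIB-WT pair stood apart by its spread: the log2 difference between its 2 libraries had an SD of 0.376 across genes, while it was 0.279 in the NFIB-ΔIDR pair and 0.281 in the EV pair. The chi-square per degree of freedom of the pair was 9.365 for NFIB-WT, 1.626 for NFIB-ΔIDR and 1.841 for EV. The main fit shares its spread over all groups. With such unequal pairs, p-values against NFIB-WT can come out low, and those of NFIB-ΔIDR against EV high. The size of this effect was not tested. For that reason the log2 fold changes without either NFIB-WT library stand beside the main results. Such a fit has a single NFIB-WT library, and its spread comes from the other groups alone. Calls it gives against NFIB-WT are therefore not a check of the main ones. Of 11 Ewing sarcoma markers in the table, the lowest, GLI1, averaged 6.30 CPM. Among 13 markers of other cell types, CD3E, KRT14, PECAM1, DES and ADIPOQ averaged at most 0.134 CPM, while PTPRC averaged 272 CPM and made up most of the list's sum of 265 to 328 CPM in every group. Only 4 of these 13 were tested, and none was called in any comparison. In bulk RNA, fewer cells with a transcript and less of it per cell cannot be told apart.

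Among the 7 members tested, FOS had the largest fold change with NFIB-WT against EV and with NFIB-ΔIDR against NFIB-WT. It had 90 and 109 counts in NFIB-ΔIDR cells, 290 and 286 counts in NFIB-WT cells, and 109 and 114 counts in EV cells. As CPM these were 12.2 and 16.1 in NFIB-ΔIDR cells, 43.5 and 36.8 in NFIB-WT cells, and 14.9 and 13.6 in EV cells. Both NFIB-WT libraries lay above all 4 others, and the NFIB-ΔIDR and EV libraries overlapped.

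**Figure D1:**
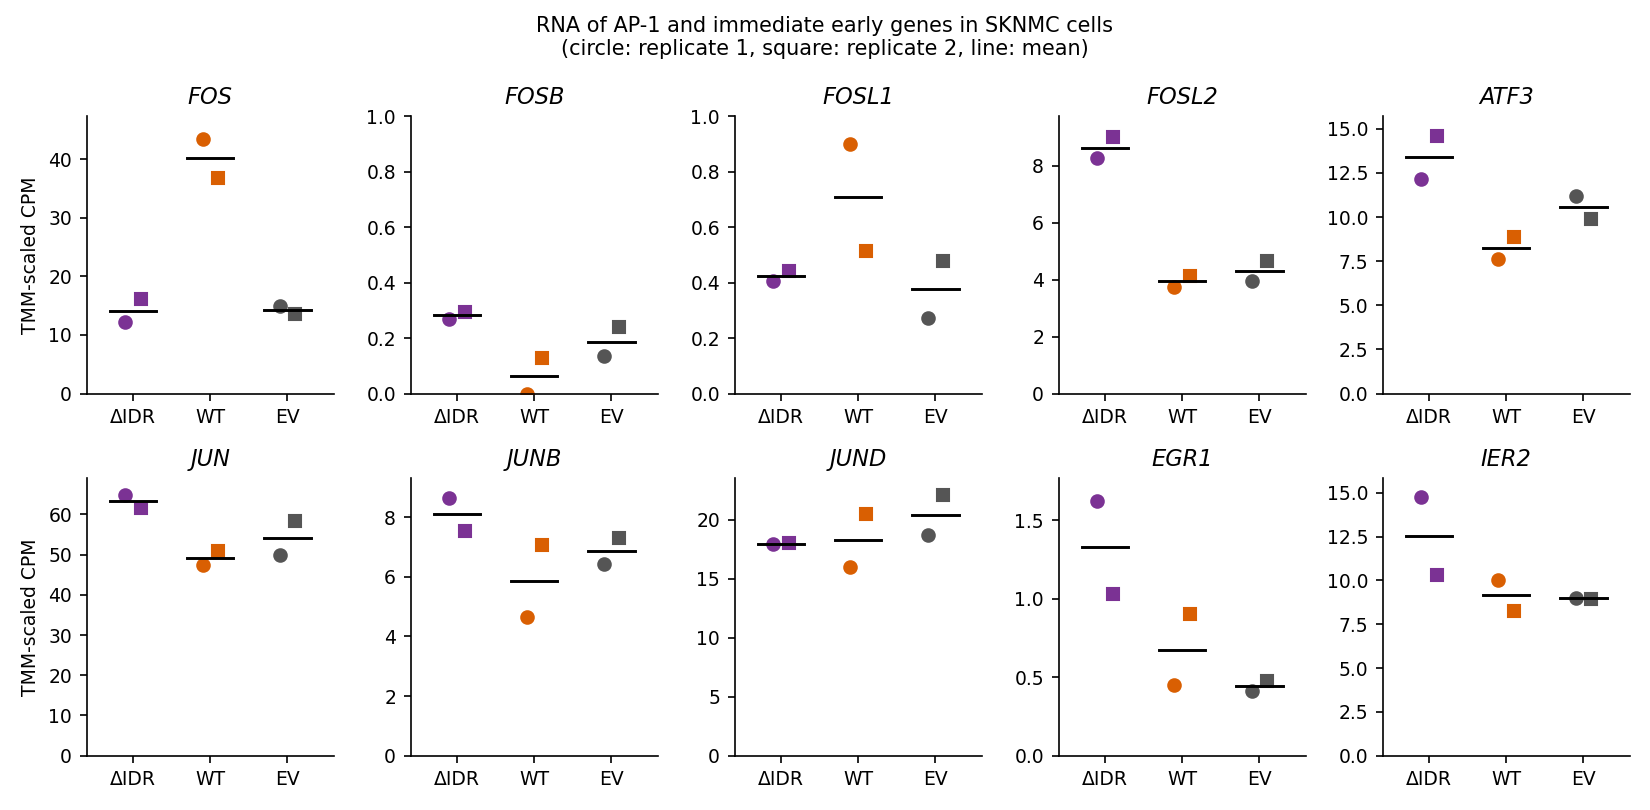
RNA levels of the 10 genes in TMM-scaled CPM (vertical axes, each from 0), with NFIB-ΔIDR, NFIB-WT and EV libraries from left to right. Circles are replicate 1, squares replicate 2 and lines the group means. FOS stood at 43.5 and 36.8 CPM in NFIB-WT cells, above all other libraries, and FOSL2 at 8.25 and 9.01 CPM in NFIB-ΔIDR cells.

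With NFIB-WT against EV, FOS rose 2.81-fold (95% interval 2.23 to 3.55; log2 fold change 1.49, SE 0.15; adjusted p = 0.00152, edgeR's quasi-likelihood test with Benjamini-Hochberg adjustment over 13501 genes). It ranked 9 by p and 24 by fold among these genes. It was 1 of 7 members tested that were called higher, while 0.452% of all genes tested were, and 0 of 7 were called lower, beside 0.163% of all genes. The log2 fold change was 1.37 without NFIB-WT replicate 1 and 1.62 without NFIB-WT replicate 2. Without EV replicate 2 it was 1.43, but no longer passed.

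With NFIB-ΔIDR against EV, FOS did not differ beyond the spread. Its fold was 0.990 (95% interval 0.759 to 1.29; log2 fold change -0.01; edgeR adjusted p = 0.983), so a rise as large as the one with NFIB-WT lies outside the interval. The direct comparison of NFIB-ΔIDR with NFIB-WT gave a FOS level 0.352 times as high (95% interval 0.278 to 0.445; log2 fold change -1.51, SE 0.15; edgeR adjusted p = 0.000592). FOS was called lower in that comparison under each of 15 alternatives, with log2 fold changes between -1.72 and -1.32. The 2 values without an NFIB-WT library were -1.39 and -1.63. The comparisons share libraries, so their values for FOS are not independent of each other.

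FOSL2 encodes FRA2, a longer-lived FOS family protein without the strong activation domain of FOS. It had 61 and 61 counts in NFIB-ΔIDR cells, 25 and 32 in NFIB-WT cells, and 29 and 39 in EV cells. Both NFIB-ΔIDR libraries were above the other 4, and the NFIB-WT and EV libraries overlapped. With NFIB-ΔIDR against NFIB-WT, FOSL2 rose 2.18-fold (95% interval 1.57 to 3.02; log2 fold change 1.12, SE 0.21; edgeR adjusted p = 0.00965). Without NFIB-WT replicate 1 or 2 the log2 fold change was 1.06 or 1.19. It did not pass without NFIB-ΔIDR replicate 1 or 2 (edgeR adjusted p = 0.0788 and 0.107) or with DESeq2 (adjusted p = 0.0767), and the range over 15 alternatives began at 0.000141.

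With NFIB-ΔIDR against EV, the FOSL2 fold was 1.99 (95% interval 1.45 to 2.72; log2 fold change 0.99, SE 0.21), which did not pass after adjustment (edgeR adjusted p = 0.0630). It passed under 5 of 15 alternatives, among them the fit of only these groups (edgeR adjusted p = 0.000526) and the fits without either NFIB-WT library, in a range from 5e-04 to 0.455. With NFIB-WT against EV its fold was 0.912 (95% interval 0.633 to 1.31). FOSL2-AS1, an antisense transcript at the same locus, shares 0 exonic bases with FOSL2 in the annotation.

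FOSL1 and FOSB were close to the limit of detection. FOSL1, which encodes FRA1, had 3 and 3 counts in NFIB-ΔIDR cells, 6 and 4 in NFIB-WT cells, and 2 and 4 in EV cells. FOSB had 2 and 2 counts in NFIB-ΔIDR cells, 0 and 1 in NFIB-WT cells, and 1 and 2 in EV cells. A count of 0 in that NFIB-WT library allows a level of up to 0.450 CPM, taken as 3 counts and covering counting error only. Neither gene passed the filter on low counts, and differences between groups were not detectable at this depth.

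FOS was the main RNA of its family in every library. For levels compared between genes, CPM were divided by gene length. On this scale FOS made up 72.3 ± 2.71% of the summed FOS family RNA in NFIB-ΔIDR cells, 92.95 ± 0.467% in NFIB-WT cells and 83.1 ± 3.25% in EV cells (SD, n = 2 each). FOSL2 made up 24.1 ± 2.35% in NFIB-ΔIDR cells, 4.98 ± 0.887% in NFIB-WT cells and 13.6 ± 1.88% in EV cells. The pairs of libraries did not overlap between any of the 3 groups for either share. Summed over the family, the level was 9.03 ± 1.44 CPM per kb in NFIB-ΔIDR cells, 20.02 ± 2.25 in NFIB-WT cells and 7.95 ± 0.185 in EV cells. Thus NFIB-ΔIDR and EV cells, close in their FOS level, differed in the part FOSL2 had in the sum. With 2 libraries a group, an exact permutation test of such a share cannot go below p = 0.333 (two-sided), so none was run.

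**Figure D2:**
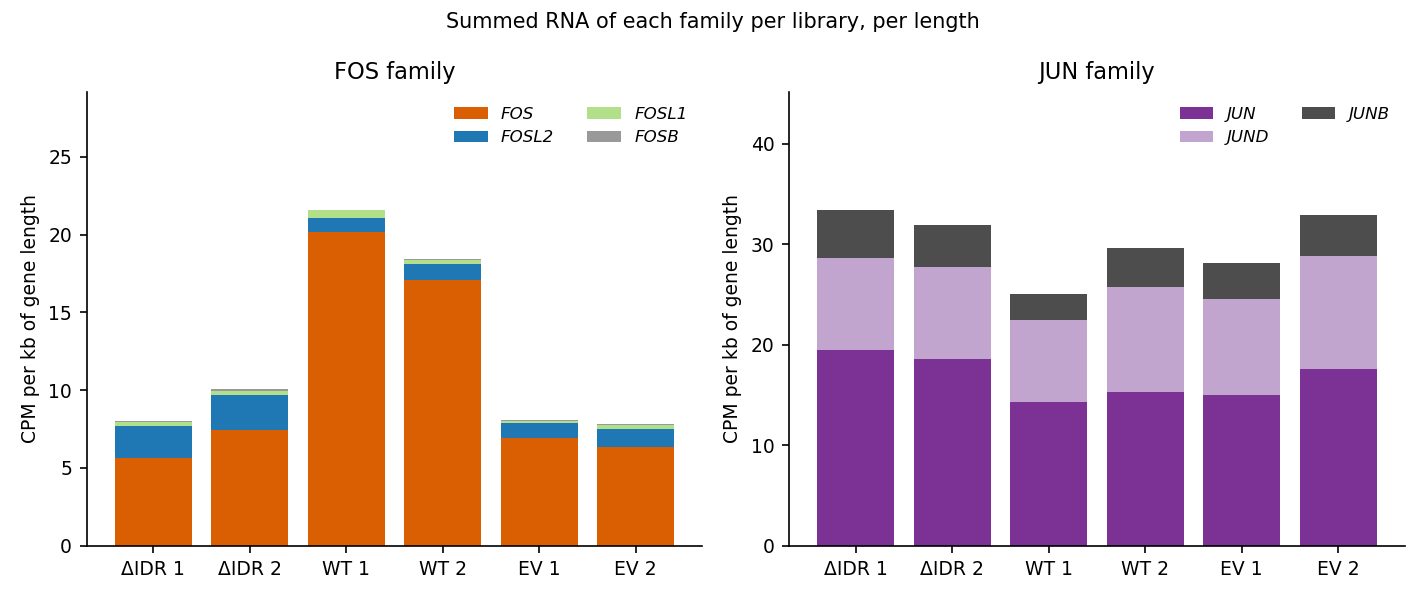
Summed RNA of the FOS family (left) and of the JUN family (right) in each library, in TMM-scaled CPM per kb of gene length, with colours for the genes. The FOS family bars are tallest in the NFIB-WT libraries, at 21.6 and 18.4 CPM per kb, and the JUN family bars lie between 25.0 and 33.4 CPM per kb.

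JUN, the partner of FOS in the classic AP-1 dimer, had 64.8 and 61.7 CPM in NFIB-ΔIDR cells, 47.4 and 50.9 CPM in NFIB-WT cells, and 49.96 and 58.4 CPM in EV cells. The NFIB-ΔIDR libraries were the highest, without overlap, and the NFIB-WT and EV libraries overlapped. With NFIB-ΔIDR against NFIB-WT the JUN fold was 1.29 (95% interval 1.09 to 1.52; log2 fold change 0.36, SE 0.11), which narrowly did not pass (edgeR adjusted p = 0.0601). It passed with no filter on low counts (edgeR adjusted p = 0.0463) and with the replicate number as a block (edgeR adjusted p = 0.0352). It did not pass in the fit of only these groups (edgeR adjusted p = 0.0983). The JUN log2 fold change was 0.31 without NFIB-WT replicate 1 and 0.41 without NFIB-WT replicate 2. With NFIB-ΔIDR against EV its fold was 1.17 (95% interval 0.987 to 1.38), and with NFIB-WT against EV it was 0.906 (0.765 to 1.07).

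JUNB, which often opposes JUN, had 64 and 51 counts in NFIB-ΔIDR cells, 31 and 55 in NFIB-WT cells, and 47 and 61 in EV cells. The NFIB-WT pair was uneven for this gene and overlapped EV. The JUNB fold with NFIB-ΔIDR against NFIB-WT was 1.37 (95% interval 0.958 to 1.94; edgeR adjusted p = 0.237). Its log2 fold change was 0.19 without NFIB-WT replicate 1 and 0.80 without NFIB-WT replicate 2. JUNB shares 259 exonic bases with HOOK2 on the opposite strand, and no source used here names the strand setting used to count, so reads of these genes may not be told apart. HOOK2 had 276 counts over the 6 libraries, and JUNB 309.

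JUND, the most constant JUN gene in most tissues, had 18.0 and 18.0 CPM in NFIB-ΔIDR cells, 16.0 and 20.5 CPM in NFIB-WT cells, and 18.7 and 22.1 CPM in EV cells. Its fold was 0.981 with NFIB-ΔIDR against NFIB-WT (95% interval 0.771 to 1.25), 0.880 with NFIB-ΔIDR against EV (0.696 to 1.11) and 0.897 with NFIB-WT against EV (0.711 to 1.13). These intervals leave out changes of the size seen for FOS.

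On the per-length scale, the summed JUN family level was 32.7 ± 1.09 CPM per kb in NFIB-ΔIDR cells, 27.3 ± 3.28 in NFIB-WT cells and 30.5 ± 3.37 in EV cells, and NFIB-WT and EV overlapped. JUN was 58.3 ± 0.0707% of this sum in NFIB-ΔIDR cells, 54.4 ± 3.82% in NFIB-WT cells and 53.5 ± 0.00707% in EV cells. FOS stood at 0.345 ± 0.0793 of the JUN level in NFIB-ΔIDR cells, at 1.26 ± 0.211 of it in NFIB-WT cells and at 0.409 ± 0.0704 of it in EV cells. FOS was thus above JUN only in the 2 NFIB-WT libraries among the 6.

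The order of the 10 genes per length was the same at the top in NFIB-ΔIDR and EV cells, with JUN first, then JUND and then FOS, while in NFIB-WT cells FOS came first, at 18.6 ± 2.18 CPM per kb, before JUN at 14.8 ± 0.740. These neighbours did not overlap in any group. Below them, FOS and IER2, and IER2 and ATF3, overlapped in NFIB-ΔIDR cells, ATF3 and JUNB in NFIB-WT cells, and IER2, ATF3 and JUNB each with the next in EV cells, so their order there is within the spread. FOSL2, EGR1, FOSL1 and FOSB were the lowest 4 in each group.

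ATF3, a stress-induced bZIP factor that pairs with JUN proteins, had 90 and 99 counts in NFIB-ΔIDR cells, 51 and 69 in NFIB-WT cells, and 82 and 83 in EV cells. As CPM the groups did not overlap, with NFIB-ΔIDR highest (12.2 and 14.6), NFIB-WT lowest (7.65 and 8.89) and EV between them (11.2 and 9.92). With NFIB-ΔIDR against NFIB-WT, ATF3 rose 1.61-fold (95% interval 1.23 to 2.11; log2 fold change 0.69, SE 0.18; edgeR adjusted p = 0.0340). The log2 fold change was 0.58 without NFIB-WT replicate 1 and 0.80 without NFIB-WT replicate 2. The edgeR call of ATF3 was lost without any 1 of the other 4 libraries and in the fit of only these groups. It was not called with DESeq2 either. Against EV, ATF3 had a log2 fold change of 0.34 with NFIB-ΔIDR (95% interval -0.03 to 0.71) and of -0.34 with NFIB-WT (-0.74 to 0.06), and neither was called.

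IER2, a small nuclear protein induced by serum, had 109 and 70 counts in NFIB-ΔIDR cells, 67 and 64 in NFIB-WT cells, and 66 and 75 in EV cells. As CPM, both NFIB-ΔIDR libraries (14.7 and 10.3) lay above the 4 others, which ran from 8.24 to 10.0. Its fold was 1.402 with NFIB-ΔIDR against EV (95% interval 1.03 to 1.90; edgeR adjusted p = 0.281), 1.38 with NFIB-ΔIDR against NFIB-WT (1.02 to 1.89; edgeR adjusted p = 0.163) and 1.01 with NFIB-WT against EV (0.734 to 1.398). The contrast with EV passed in the fit of only these groups (edgeR adjusted p = 0.0469), and with DESeq2 its adjusted p was 0.914. Leaving out single libraries, the log2 fold change of NFIB-ΔIDR against NFIB-WT lay between 0.18 and 0.69. In the annotation 2 antisense transcripts cover 662 and 946 exonic bases of IER2.

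EGR1, a zinc finger factor that serum response factor induces together with FOS, was low. It had 12 and 7 counts in NFIB-ΔIDR cells, 3 and 7 in NFIB-WT cells, and 3 and 4 in EV cells. It did not pass the filter on low counts. In an edgeR fit of all 22604 genes, the EGR1 log2 fold change was 1.54 with NFIB-ΔIDR against EV (95% interval 0.28 to 2.80; adjusted p = 0.240) and 0.61 with NFIB-WT against EV (-0.84 to 2.06; adjusted p = 0.847). With NFIB-ΔIDR against NFIB-WT the EGR1 log2 fold change was 0.93 (95% interval -0.24 to 2.09; edgeR adjusted p = 0.428). The highest EGR1 library, at 12 counts, was an NFIB-ΔIDR one, while the other NFIB-ΔIDR library had 7, as 1 NFIB-WT library did. A difference in EGR1 between the NFIB forms was thus not shown, and no contrast with FOS can be drawn.

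**Figure D3:**
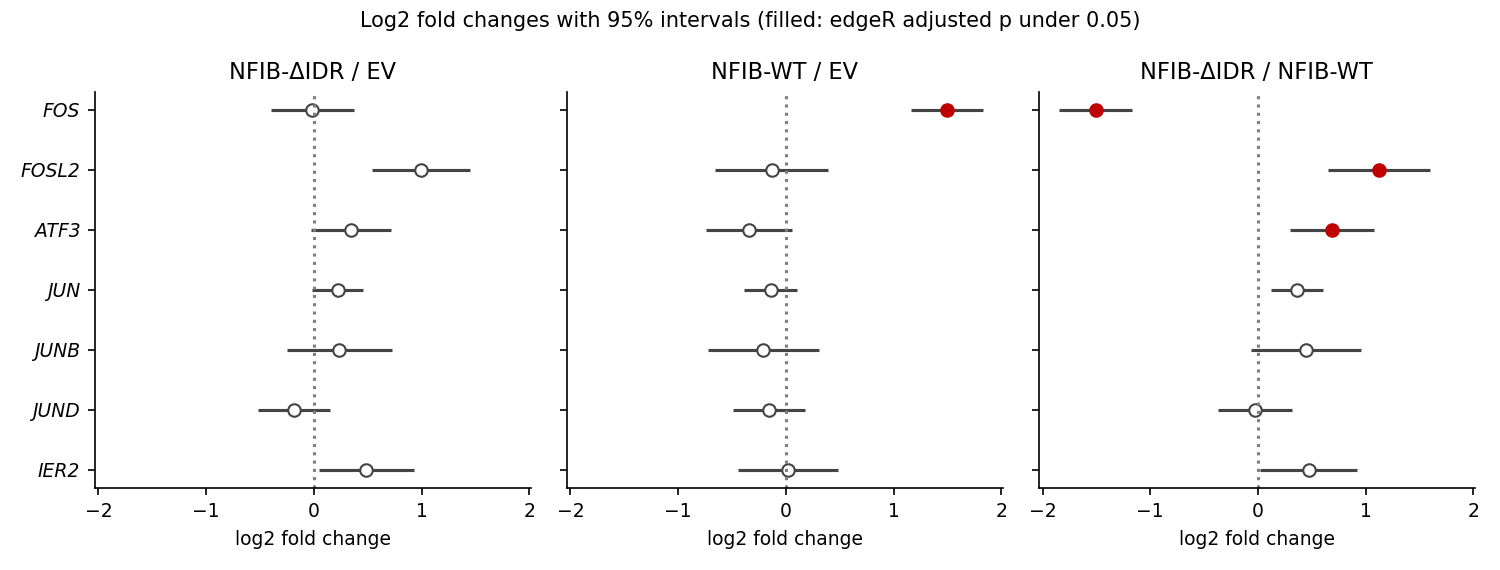
Log2 fold changes (points) with 95% intervals (lines) of the 7 members tested, in NFIB-ΔIDR against EV, NFIB-WT against EV and NFIB-ΔIDR against NFIB-WT from left to right. Filled points had an edgeR adjusted p under 0.05: FOS at 1.49 in the middle panel, and FOS at -1.51, FOSL2 at 1.12 and ATF3 at 0.69 in the right panel.

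Counted over the members, 2 of 7 tested were called higher with NFIB-ΔIDR against NFIB-WT (FOSL2 and ATF3) and 1 of 7 lower (FOS), beside 5.19% and 5.52% of all genes tested. At an unadjusted p under 0.05 it was 5 of 7, with JUN and IER2 added, beside 27.5% of all genes tested. With NFIB-ΔIDR against EV, 0 of 7 were called in either direction by edgeR or by DESeq2, beside 0.296% of all genes higher and 0.356% lower, and 2 of 7 (FOSL2 and IER2) had an unadjusted p under 0.05, beside 15.2% of all genes. The median log2 fold change of the 7 was 0.24 with NFIB-ΔIDR against EV, -0.14 with NFIB-WT against EV and 0.45 with NFIB-ΔIDR against NFIB-WT, while that of all genes tested was within 0.00414 of 0.

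Ratios were also taken between same-numbered libraries, without a test. These ratios come from the same counts as the fits and are not separate support for them. No source used here states that the numbers pair the libraries, and the numbers serve here only as names. FOS had a log2 ratio of 1.53 and 1.42 in NFIB-WT against EV, of -1.81 and -1.18 in NFIB-ΔIDR against NFIB-WT, and of -0.28 and 0.24 in NFIB-ΔIDR against EV. The first 2 comparisons kept the sign and the last did not. The size of the FOS ratio was above that of 97.3% to 99.5% of all genes tested in the first 2. FOSL2 had 1.01 and 0.91 against EV, and 1.08 and 1.08 against NFIB-WT, in the NFIB-ΔIDR libraries. With NFIB-ΔIDR against NFIB-WT, 6 of the 7 members were positive in the first pair and 5 of 7 in the second, JUND being the member that changed sign.

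**Figure D4:**
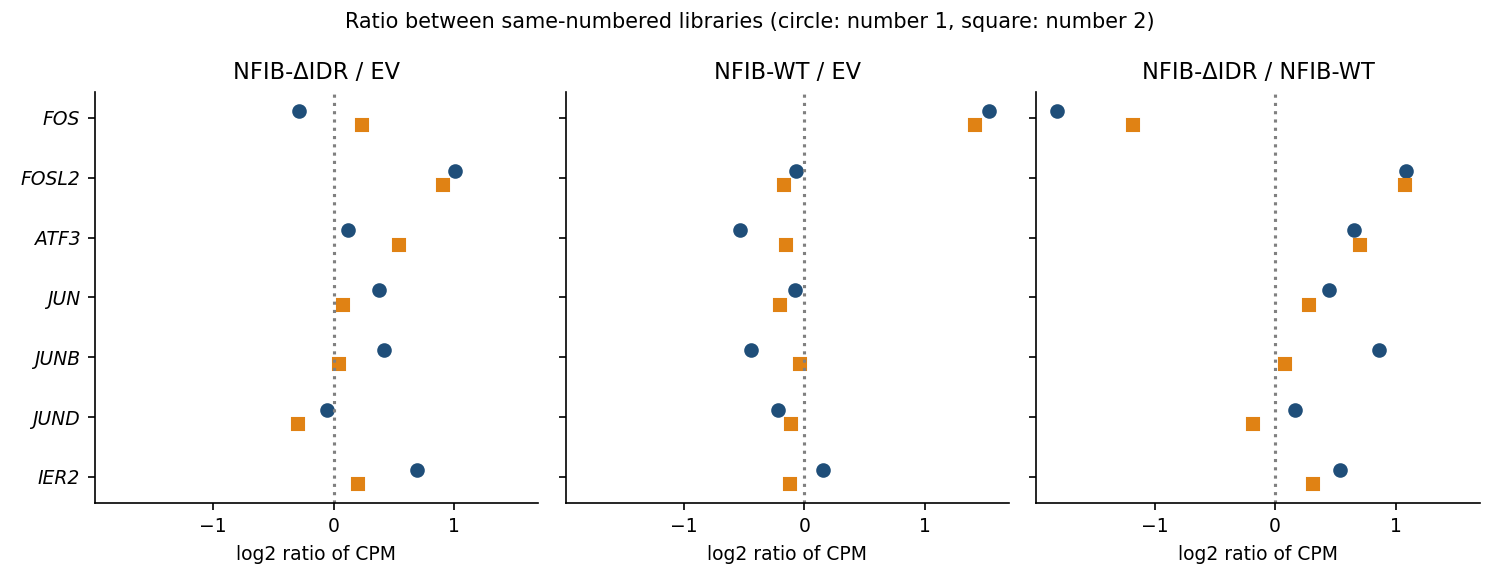
Log2 ratio of CPM between libraries of the same number (horizontal axes) for the 7 members tested, in the 3 comparisons. Circles are libraries numbered 1 and squares those numbered 2. FOS lies at 1.53 and 1.42 in NFIB-WT against EV and at -1.81 and -1.18 in NFIB-ΔIDR against NFIB-WT, and on both sides of 0 in NFIB-ΔIDR against EV.

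The genes most like FOS across the 6 libraries were sought by the root-mean-square difference of centred log2 CPM, over 454 genes of enough level and spread. The nearest was SCN1A, a sodium channel subunit (0.130), followed by ANGPTL4, a secreted inhibitor of lipoprotein lipase (0.198), PARM1, a mucin-like membrane protein (0.208), DKK2, a Wnt pathway modulator (0.240), CYP4F22, a fatty acid hydroxylase (0.246), and TNC, a matrix glycoprotein (0.254). PARM1, for example, had 37.7 and 34.8 CPM in NFIB-ΔIDR cells, 116 and 108 CPM in NFIB-WT cells, and 44.9 and 47.1 CPM in EV cells. SCN1A had 3.79 and 5.17 CPM in NFIB-ΔIDR cells, 11.2 and 12.4 CPM in NFIB-WT cells, and 4.91 and 4.06 CPM in EV cells. Genes of low level or small spread, FOSB and FOSL1 among them, were not compared. FOSL2 met the limits of level and spread and was not among these 6. For family members that were not compared, absence from these 6 is not a result.

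Of 41 other immediate early genes in the table, 33 were tested. With NFIB-ΔIDR against NFIB-WT, 2 were called higher and 4 lower, where 5.19% and 5.52% of all genes tested were, and against EV none was called with either NFIB form. With DESeq2, NR4A3 kept the call (adjusted p = 0.0196), and EGR2, IER5 and KLF10 did not (adjusted p = 0.127, 0.199 and 0.122). Those lower included NR4A3, an orphan nuclear receptor, with 13.5 and 15.9 CPM in NFIB-ΔIDR cells, 26.8 and 24.1 CPM in NFIB-WT cells, and 15.4 and 16.4 CPM in EV cells (log2 fold change against NFIB-WT -0.79, edgeR adjusted p = 0.00689). IER5 (-0.71, edgeR adjusted p = 0.0357) and KLF10, a TGF-beta induced zinc finger factor (-0.39, edgeR adjusted p = 0.0340), also fell. For these 3 genes both NFIB-WT libraries lay above the other 4. In part this follows from their choice as genes called lower against NFIB-WT. The share of all genes with this order was not counted. EGR2, a zinc finger factor related to EGR1, rose, with 11.9 and 8.86 CPM in NFIB-ΔIDR cells, 5.25 and 5.80 CPM in NFIB-WT cells, and 6.42 and 6.69 CPM in EV cells (log2 fold change against NFIB-WT 0.91, edgeR adjusted p = 0.0222). The median log2 fold change of the 33 was 0.01 in this comparison and 0.09 with NFIB-WT against EV.

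Of 33 transcription factors and kinases known to act on the FOS and JUN genes or proteins, all were tested and none was called in any comparison. Their log2 fold changes with NFIB-WT against EV lay between -0.49 and 0.46, with a median of 0.09.

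Of 25 genes known as AP-1 targets from other cells, 13 were tested, and their directions were mixed. TIMP1, an inhibitor of matrix metalloproteinases, had 26.4 and 24.5 CPM in NFIB-ΔIDR cells, 45.7 and 47.3 CPM in NFIB-WT cells, and 30.6 and 30.7 CPM in EV cells. It was called higher with NFIB-WT against EV (log2 fold change 0.60, edgeR adjusted p = 0.0339), though not with DESeq2 (adjusted p = 0.0989), and lower with NFIB-ΔIDR against NFIB-WT (-0.87, edgeR adjusted p = 0.00138). CCND1, the G1 cyclin and also a Ewing sarcoma marker, fell with NFIB-ΔIDR against NFIB-WT, at 1182 ± 27.7 CPM in NFIB-ΔIDR cells, 1580 ± 37.5 CPM in NFIB-WT cells and 1257 ± 4.60 CPM in EV cells (log2 fold change -0.42, edgeR adjusted p = 0.00524).

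MMP13 and CXCL8 were called higher with NFIB-ΔIDR against NFIB-WT, at low counts. MMP13, a collagenase, had 13 and 11 counts in NFIB-ΔIDR cells, 1 and 2 in NFIB-WT cells, and 2 and 5 in EV cells, and its summed counts stood 8.15 times as high in NFIB-ΔIDR as in NFIB-WT cells (exact counting interval 2.48 to 42.3; edgeR adjusted p = 0.0169). CXCL8, a neutrophil chemokine, had 17 and 23 counts in NFIB-ΔIDR cells, 5 and 3 in NFIB-WT cells, and 5 and 8 in EV cells, a ratio of 5.09 of NFIB-ΔIDR to NFIB-WT (2.35 to 12.6; edgeR adjusted p = 0.0141). MMP1, interstitial collagenase, had 18 and 13 counts in NFIB-ΔIDR cells, 11 and 10 in NFIB-WT cells, and 2 and 2 in EV cells. It was called higher with NFIB-ΔIDR against EV (ratio 8.59, exact counting interval 3.04 to 33.5; edgeR adjusted p = 0.0332), and with NFIB-WT against EV the ratio was 5.71 (1.93 to 22.9; edgeR adjusted p = 0.0958). MMP1 was not called with NFIB-ΔIDR against NFIB-WT (log2 fold change 0.58, edgeR adjusted p = 0.341). DESeq2 gave no adjusted p for MMP1, MMP13 or CXCL8 in the comparisons that edgeR called. The median log2 fold change of the 13 targets was -0.06 with NFIB-ΔIDR against NFIB-WT.

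**Figure D5:**
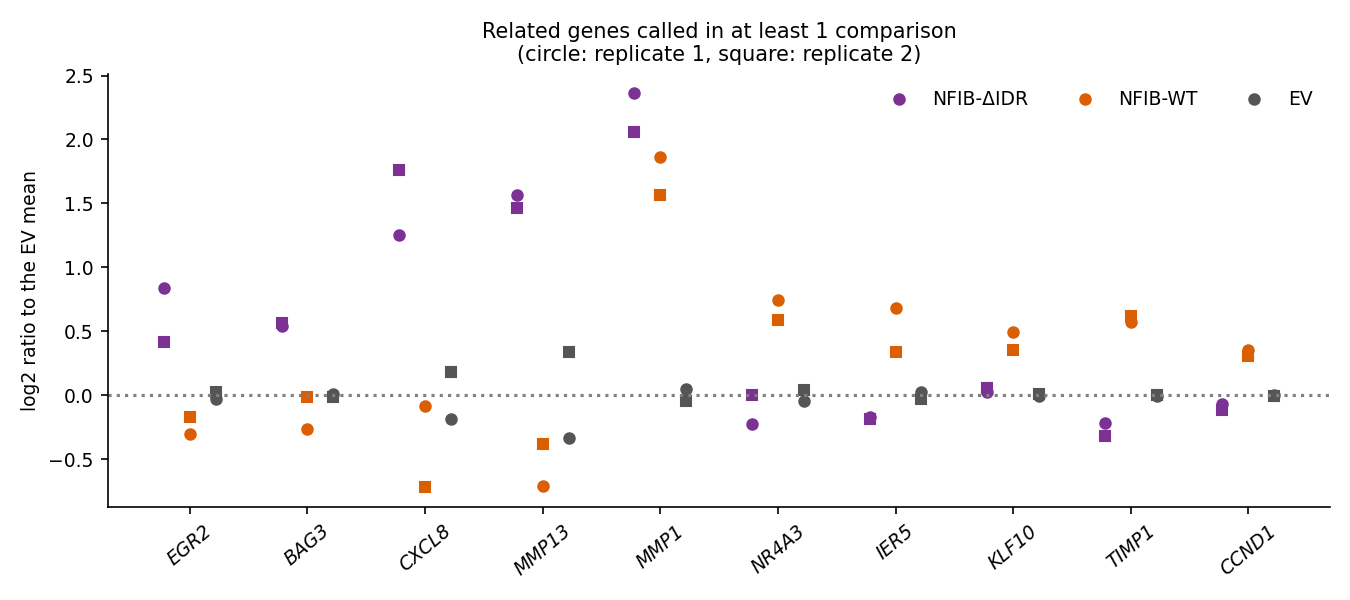
Log2 ratio of each library to the EV mean (vertical axis) for the named immediate early genes, stress gene and AP-1 targets, with NFIB-ΔIDR, NFIB-WT and EV libraries from left to right at each gene. Circles are replicate 1 and squares replicate 2. NR4A3, IER5, KLF10, TIMP1 and CCND1 are highest in the NFIB-WT libraries, while EGR2, BAG3, CXCL8, MMP13 and MMP1 are highest in the NFIB-ΔIDR libraries.

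Since handling of cells can raise immediate early genes, heat shock genes were read as well. Of 10 tested, 1 was called: BAG3, a co-chaperone, had 19.6 and 19.9 CPM in NFIB-ΔIDR cells, 11.1 and 13.3 CPM in NFIB-WT cells, and 13.5 and 13.3 CPM in EV cells (log2 fold change of NFIB-ΔIDR against NFIB-WT 0.69, edgeR adjusted p = 0.0148; DESeq2 adjusted p = 0.0955). In that comparison 5.19% of all genes tested were called higher. The summed level of the 11 heat shock genes in the table was 12078 and 12950 CPM in NFIB-ΔIDR cells, 11905 and 13618 CPM in NFIB-WT cells, and 12822 and 13631 CPM in EV cells, with overlap between all groups. The 4 structural RNAs in the table, a sign of library make-up, were summed as well. They stood at 1718 and 1373 CPM in NFIB-ΔIDR cells, 2566 and 1735 CPM in NFIB-WT cells, and 1503 and 1456 CPM in EV cells. NFIB-WT replicate 1 stood out, while NFIB-WT replicate 2 was close to the higher NFIB-ΔIDR library. RMRP among them fell with NFIB-ΔIDR against NFIB-WT (log2 fold change -0.78, edgeR adjusted p = 0.0387, DESeq2 adjusted p = 0.218). It had 559 and 468 CPM in NFIB-ΔIDR cells, 1130 and 630 CPM in NFIB-WT cells, and 648 and 564 CPM in EV cells. Of the 11 Ewing sarcoma markers tested, LIPI and PAPPA were called higher with NFIB-WT against EV (log2 fold changes 0.62 and 0.61), with edgeR adjusted p of 0.0376 and 0.00682. Of all genes tested, 0.452% were called higher there. With NFIB-ΔIDR against NFIB-WT, LIPI, KDSR and PAPPA were called lower beside CCND1, and STEAP1 higher (with DESeq2, STEAP1 had an adjusted p of 0.0563). The shares of all genes tested were 5.52% lower and 5.19% higher. The part of library make-up, handling or cell state in the FOS, FOSL2 and ATF3 results was not tested.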

How the data were processed

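Processed RNA-seq counts of 6 SKNMC libraries were analysed. The authors converted reads with CASAVA 2.19, aligned them with STAR 2.4.0h to hg19, and deposited raw counts per RefSeq gene from featureCounts, without normalization. The CORALL total RNA kit keeps strand and adds molecular identifiers, but no source used here says whether either was used for counting. Start and end in the deposited table span 1000 bases on each side of the transcription start, so gene positions came from GENCODE lifted to GRCh37, and promoter bases from the GRCh37 genome.

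Low genes were removed by filterByExpr with a minimum count of 10 and a minimum total of 15. Scaling by TMM and the quasi-likelihood F test were run in edgeR 4.0.16 (R 4.3.3) in a single fit of all 6 libraries, with Benjamini-Hochberg adjustment over the 13501 genes tested and a threshold of 0.05. The 2 libraries of a group are named as biological duplicates. If they were technical, p-values measure only that spread. Library totals of 6664231 to 8465572 counts limit genes with few counts, and intervals on counts cover counting error only. Log2 CPM for ratios used a prior count of 2. The fit was tested on data simulated with a common spread for all genes and groups. That test therefore did not cover the wider spread of the NFIB-WT pair.

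The members and gene lists were chosen with earlier results of these data known. Genes named in the text were NFIB, the 10 members, up to 4 called genes a comparison and list by smallest p, and the 6 genes nearest to FOS among those of at least 5 CPM with an SD of at least that of FOS divided by 2. A called gene of these lists is not reported here, though the counts over lists include it. Alternatives were DESeq2 1.42.0, other scaling factors, filters, fits of 2 groups, a block, robust estimation, the study's fold of 1.5 with an unadjusted p under 0.05, and leaving out each library. Figures were drawn with matplotlib 3.10.9.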

Additional observations from a re-analysis of the deposited data

How the results depend on the processing

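FOS was called lower with NFIB-ΔIDR against NFIB-WT under all 15 alternatives, and higher with NFIB-WT against EV under 14 of 15. Over the 21 log2 fold changes of members, 284 alternative values kept their direction and side of the threshold, 14 gained the call, 10 lost it and 7 changed sign, none of these called. The fold of at least 1.5 with unadjusted p called 1 member higher with NFIB-ΔIDR against EV, no filter on low counts also 1, and the fit of only the groups compared 2, where the reported number was 0. For NFIB-ΔIDR against NFIB-WT, members called higher numbered 1 in the fit of only the groups compared and 0 with DESeq2, where 2 were reported. Leaving out single libraries gave 0 to 1 members higher with NFIB-WT against EV, 0 to 2 with NFIB-ΔIDR against EV and 0 to 4 with NFIB-ΔIDR against NFIB-WT. The highest of these came without an NFIB-WT library, where the pair with the widest spread no longer enters the shared spread and the lone library is assumed to vary like the other groups. The cause of these and of the other changes was not tested.

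The values that changed sign were FOS with NFIB-ΔIDR against EV on library totals only (0.00825), and, leaving out single libraries, FOS in that comparison (-0.23 to 0.18), JUNB (-0.56 to 0.0435), JUND (-0.35 to 0.00017) and IER2 (-0.12 to 0.17) with NFIB-WT against EV, and JUND with NFIB-ΔIDR against NFIB-WT (-0.19 to 0.16). The AP-1 partners, other immediate early genes, upstream factors, AP-1 targets and heat shock genes had 9, 33, 33, 13 and 10 genes tested. SRF is in both the immediate early and the upstream list. Over these lists together, edgeR called 1 higher and 0 lower with NFIB-WT against EV, and 1 and 0 with NFIB-ΔIDR against EV. With NFIB-ΔIDR against NFIB-WT it called 6 and 7, where 5.19% and 5.52% of all genes were called. DESeq2 called 0 higher in both comparisons with EV, and 1 higher and 4 lower with NFIB-ΔIDR against NFIB-WT, but gave no adjusted p for MMP1, MMP13 and CXCL8. The fold threshold called 5 higher and 2 lower with NFIB-WT against EV, 4 higher and 1 lower with NFIB-ΔIDR against EV, and 8 higher and 3 lower with NFIB-ΔIDR against NFIB-WT.

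With the replicate number as a block, 1 member (FOSL2, adjusted p = 0.0388 by edgeR) was called with NFIB-ΔIDR against EV, and JUN passed with NFIB-ΔIDR against NFIB-WT (adjusted p = 0.0352). The correlations of replicate differences between groups were 0.0539, 0.0156 and 0.153 across genes, the last of them between NFIB-WT and EV. The numbers share no stated origin, and these correlations cannot decide whether same-numbered libraries were prepared together. The depth limits FOSB, FOSL1 and EGR1, which had at most 12 counts in a library.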
